A study of Saccharomyces cerevisiae with 72 samples.

Results

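The gcn2 deletion strain of budding yeast was compared directly with wild type while both were exposed to 50 mM 3-amino-1,2,4-triazole (3-AT). All arrays that carry treated gcn2 deletion RNA against treated wild-type RNA of the same minute were taken, which gave 12 of the 72 arrays of the series. They form 6 of its 36 dye-swapped pairs, sampled at 2, 4, 6, 10, 15 and 20 min. The mutant RNA came from a strain whose only labelled change is the deletion of GCN2, and the other from the strain labelled wild type. The labels match both RNAs by dose and minute. The labels give no strain background and no markers. Both strains received the same drug, so nothing that 3-AT does alike in both appears in these ratios.

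The arrays measure total RNA as cDNA in 2 colours, with probes for exons, introns and splice junctions. Each value is a log2 ratio, positive where the gcn2 deletion is higher, and is the mean of the 2 arrays of a pair. The files do not state the direction of the ratios, which in these arrays was set by the deleted gene. Further arrays compared each strain in 3-AT with its own untreated cells at the same minutes, and they are set beside the direct values where this helps. Their ratios were taken as treated over untreated. GCN2 cannot set that direction, since both RNAs of such an array come from the same strain. The labels do not say whether each minute had its own culture, and the course was run once, so every p-value below measures the spread between time points of a single course.

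Gcn2 is a protein kinase that binds uncharged transfer RNA and phosphorylates the translation factor eIF2. This lowers general translation initiation and raises translation of the GCN4 mRNA, whose product is the activator of amino acid biosynthesis genes. The drug 3-AT inhibits His3, an enzyme of histidine synthesis, and is the usual way to starve yeast for histidine.

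The deleted gene was read first. GCN2 stood at -4.45 at 2 min, -4.54 at 4 min, -4.68 at 6 min, -3.88 at 10 min, -4.20 at 15 min and -4.37 at 20 min in the gcn2 deletion relative to wild type. Every pair was far below 0, with a mean of -4.35 ± 0.086 (log2, SE, n = 6; limma adjusted p = 1.42e-08). An exact sign-flip permutation test over the 6 pairs gave p = 0.0312, the smallest that 6 pairs allow. The arrays with mutant RNA in Cy3 averaged -4.75 and those with mutant RNA in Cy5 averaged -3.96, and the 20 min pair ran the other way (-4.04 in Cy3 and -4.70 in Cy5). Since GCN2 set the direction of the ratios, its sign is no finding. With the gene deleted, the probe can read only background in the mutant, so the size is not exact.

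The 2 arrays of a pair correlated with r between 0.413 and 0.81 over the named probes, and array medians lay between -0.0052 and 0.0104. The SD of the pair means over probes was 0.229 at 2 min and 0.391 at 20 min. Of the 1457 named probes 51.1% differed on average (26.8% higher, 24.3% lower) at an adjusted p below 0.05. Of 976 gene levels 58.4% did: 334 were higher (34.2%) and 236 lower (24.2%) in the gcn2 deletion, and the median level was at 0.026. Most differences were small: 40 levels averaged more than 0.5 from 0, and 9 averaged more than 1. The difference changed over the course in 306 levels (31.4%), with 130 rising (13.3%) and 176 falling (18%). Over all named probes, 407 changed (27.9%, with 13.9% rising and 14% falling), but 107 without the 20 min pair, 237 without the 4 min pair, 259 without the 15 min pair, 141 with mutant RNA in Cy3 alone and 176 with log2 of the minute.

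All 4 measured genes of amino acid biosynthesis were lower in the gcn2 deletion, and the gap widened in all 4 (24.2% lower and 18% falling among all levels). HIS4, which encodes a multifunctional enzyme of histidine synthesis, stood at -0.82 at 2 min, -0.99 at 4 min, -1.22 at 6 min, -1.80 at 10 min, -2.39 at 15 min and -2.62 at 20 min. It was below 0 in every pair and lower at each later minute, with a mean of -1.64 ± 0.045 (SE, n = 6; limma adjusted p = 1.02e-07). HIS5, which encodes histidinol-phosphate aminotransferase, stood at -0.58, -0.61 and -0.70 at 2, 4 and 6 min, then at -1.55 at 10 min, -2.40 at 15 min and -2.83 at 20 min. Its first 3 minutes lay close together and the later ones fell away, for a mean of -1.44 ± 0.059 (adjusted p = 1.08e-06). The fitted change from 2 to 20 min was -2.52 for HIS5 and -1.93 for HIS4 (adjusted p = 0.000181 for both).

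HIS2, which encodes histidinol-phosphatase, and LYS14, which encodes the activator of lysine synthesis genes, showed a smaller form of the same course. HIS2 stood at -0.10 at 2 min and -1.10 at 20 min, with a mean of -0.47 ± 0.033 (adjusted p = 1.46e-05). LYS14 stood at -0.09 at 2 min and -0.99 at 20 min, with a mean of -0.43 ± 0.050 (adjusted p = 0.00024). Both lay within 0.2 of 0 for the first 6 min and were below 0 in all 6 pairs, and LYS14 missed the threshold without the slope term (adjusted p = 0.0503). The median of the 4 genes was -0.34 at 2 min and -1.86 at 20 min, against 0.033 and 0.0079 for all gene levels.

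GCN4 mRNA was itself lower in the gcn2 deletion. It stood at -0.41 at 2 min and between -0.59 and -0.70 at every later minute, with a mean of -0.60 ± 0.033 (limma adjusted p = 6e-06), and its fitted change over the course was -0.22 (adjusted p = 0.12). The other measured genes of amino acid control differed by much less. GCN1 averaged 0.26 and GCN20 averaged 0.19, both encoding proteins that act with Gcn2 at the ribosome. GCN3, which encodes a regulatory subunit of the eIF2 exchange factor, averaged -0.24. GCN5 averaged -0.11 and ADA2 averaged 0.26, which encode subunits of the SAGA coactivator, and SNF1, which encodes the AMP-activated kinase, averaged -0.24. All 6 passed the test (limma adjusted p between 0.000269 and 0.0122), as did 58.4% of all levels. In 1 dye orientation each, GCN3 (-0.06, Cy5), GCN5 (-0.02, Cy3) and GCN20 (0.06, Cy3) did not pass, and GCN5 also missed without the 15 or the 20 min pair (-0.09 and -0.08).

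Of the sulfur and methionine genes, 2 of 4 were lower on average and 3 of 4 fell over the course (24.2% and 18% among all levels). MET28, which encodes a leucine zipper regulator of sulfur metabolism, stood at -0.53, -0.37 and -0.33 at 2, 4 and 6 min and at -1.09, -2.55 and -3.25 at 10, 15 and 20 min. It was the lowest gene of all at 20 min after GCN2, and its fitted change of -3.12 from 2 to 20 min was the largest fall of any level (adjusted p = 0.000771). MET22, which encodes a bisphosphate nucleotidase needed for sulfate assimilation, stood at -0.17 at 2 min and -2.21 at 20 min. MET4, which encodes the main activator of sulfur genes, lay between 0.08 and 0.11 up to 10 min and at -0.26 and -0.52 at 15 and 20 min. MET18, which acts in iron-sulfur cluster assembly, lay between -0.20 and 0.11 and did not pass either test.

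**Figure D1:**
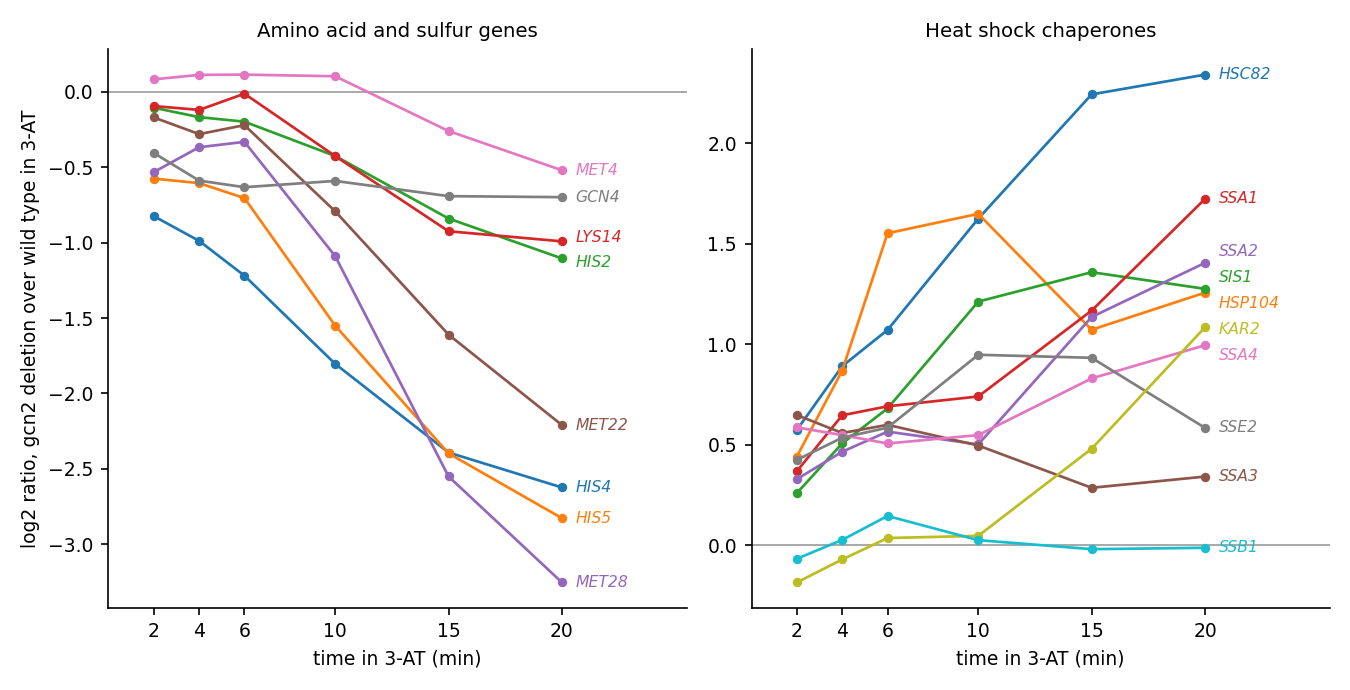
The log2 ratio of the gcn2 deletion over wild type in 3-AT (vertical axis) is plotted against the minute in 3-AT for 8 amino acid and sulfur genes (left) and 10 heat shock chaperone genes (right), with 1 point per dye-swapped pair. HIS4, HIS5, MET22 and MET28 end between -2.21 and -3.25 at 20 min, and HSC82 ends at 2.34.

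Further genes that were low followed different courses. CAF16, which encodes an ATPase tied to the Ccr4 complex, stood at -0.39 at 2 min and -1.76 at 20 min and its ratio fell over the course (change -1.46). SPL2, which encodes a small protein of phosphate regulation, lay between -1.26 and -0.83 with no change over the course (adjusted p = 0.922). TEA1 and ECM32 were not among the 10 lowest means but had 2 of the 6 largest falls. TEA1, which encodes an activator of Ty1 elements, stood at -0.07 at 2 min and -1.44 at 20 min. ECM32, which encodes a helicase linked to translation termination, stood at 0.11 at 2 min, changed sign by 10 min and reached -1.41 at 20 min.

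Heat shock chaperones moved the opposite way: 9 of 10 measured genes were higher in the gcn2 deletion and none was lower (34.2% and 24.2% among all levels), with a median of 0.70. HSC82, which encodes the constitutive Hsp90, stood at 0.57 at 2 min, 0.89 at 4 min, 1.07 at 6 min, 1.62 at 10 min, 2.24 at 15 min and 2.34 at 20 min. Every pair was above 0 and each was above the one before, with a mean of 1.46 ± 0.054 (SE, n = 6; limma adjusted p = 7.2e-07). HSP104, which encodes the disaggregase, peaked earlier, at 1.55 at 6 min and 1.65 at 10 min, and stood at 1.26 at 20 min. Its mean was 1.14 ± 0.13 (adjusted p = 0.000231), and its linear change over the course did not pass (adjusted p = 0.38).

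The Hsp70 genes split by course. SSA1 and SSA2, which encode the main cytosolic Hsp70s, stood at 0.37 and 0.33 at 2 min and at 1.72 and 1.40 at 20 min. SSA4, a stress-inducible member, lay between 0.51 and 0.59 up to 10 min and reached 0.99 at 20 min, while SSA3 stood at 0.65 at 2 min and 0.34 at 20 min and was the single chaperone gene that fell over the course (change -0.35, adjusted p = 0.0237). SSB1, which encodes a ribosome-bound Hsp70, averaged 0.02 ± 0.035 and did not pass the test (adjusted p = 0.722). Close copies such as SSA1 and SSA2 can share probe signal, so their values may not be independent.

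SIS1, which encodes an Hsp40 partner of Hsp70, stood at 0.26 at 2 min and 1.36 at 15 min, and SSE2, which encodes an exchange factor of Hsp70, reached 0.95 at 10 min. KAR2, which encodes the Hsp70 of the endoplasmic reticulum, stood at -0.18 at 2 min and 1.08 at 20 min, and its mean of 0.23 was 0.06 and not called without the 20 min pair. ALD3, which encodes a stress-induced aldehyde dehydrogenase, was the highest level outside the chaperones and mating genes, between 0.61 and 0.99 with a mean of 0.85. TYE7, which encodes an activator of glycolytic genes, was at -0.17 at 2 min and 0.96 at 20 min, and ADR1, which encodes an activator of genes for growth without glucose, was at -0.14 at 2 min and 0.94 at 20 min.

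A direct ratio can be split by arithmetic into a difference between the untreated strains and a difference between their responses to 3-AT. No array held both untreated RNAs, so the untreated difference is implied: the direct ratio minus the course of the gcn2 deletion plus the course of wild type. The 3 comparisons share the treated RNAs and nothing closes the loop, so the implied values have no check of their own. By this arithmetic 434 of 976 levels (44.5%) differed between the untreated strains, with 26.7% higher and 17.7% lower. The response differed in 153 levels (15.7%), with 7.48% above 0 and 8.2% below. The second count is unstable. Over all 1457 probes the response differed in 206, but in 1 without the slope term, which was none of the genes named next. It was 344, 100, 90, 29 and 80 without the 2, 6, 10, 15 and 20 min pairs, 84 with mutant or treated RNA in Cy3 alone and 74 with pairs scaled to equal spread.

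HIS4 stood at an implied -0.92 ± 0.048 (SE; limma adjusted p = 1.47e-05) between the untreated strains, and between -0.70 and -1.06 at single minutes. In response to 3-AT it averaged 0.19 in the gcn2 deletion and 0.91 in wild type. At 20 min, the response was 0.55 in the gcn2 deletion against 2.12 in wild type. HIS5 had an implied untreated difference of -0.62 ± 0.044, with a response at 20 min of 1.03 in the gcn2 deletion against 3.04 in wild type. Both responses at 20 min were above 0 in the strain without GCN2 and smaller than in wild type. MET28 had a response at 20 min of -0.35 in the gcn2 deletion against 2.48 in wild type.

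Of the 10 chaperones, the implied untreated difference was called higher in 7 and lower in 1 (26.7% and 17.7% among all levels). The response difference was called higher in 8 and lower in none (7.48% and 8.2% among all levels). The median implied untreated difference was 0.50 at 2 min and 0.033 at 20 min, beside direct medians of 0.40 and 1.17. For the 3 chaperones given next, more of the direct mean lay in the response than in the implied untreated difference. HSC82 averaged -0.32 in response to 3-AT in the gcn2 deletion and -1.31 in wild type, and its implied untreated difference was 0.46. SIS1 averaged 0.05 in the gcn2 deletion and -0.75 in wild type, with an implied untreated difference of 0.09 (adjusted p = 0.255). HSP104 averaged -0.80 in the gcn2 deletion and -1.70 in wild type. In each of the 3 genes the mean response was further below 0 in wild type.

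In 3 other strong genes the response was not called (adjusted p of 0.79 for RPS22B, 0.798 for MF(ALPHA)2 and 0.156 for SUP16). RPS22B, which encodes a protein of the small ribosomal subunit, averaged -0.78 in 3-AT and an implied -0.81 untreated. MF(ALPHA)2 averaged 1.09 in 3-AT and an implied 1.07 untreated. SUP16, a serine tRNA gene, averaged -1.07 in 3-AT and an implied -1.40 untreated. SPL2 averaged -1.10 in 3-AT and an implied -0.69 untreated, and its response was called (adjusted p = 0.0328).

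**Figure D2:**
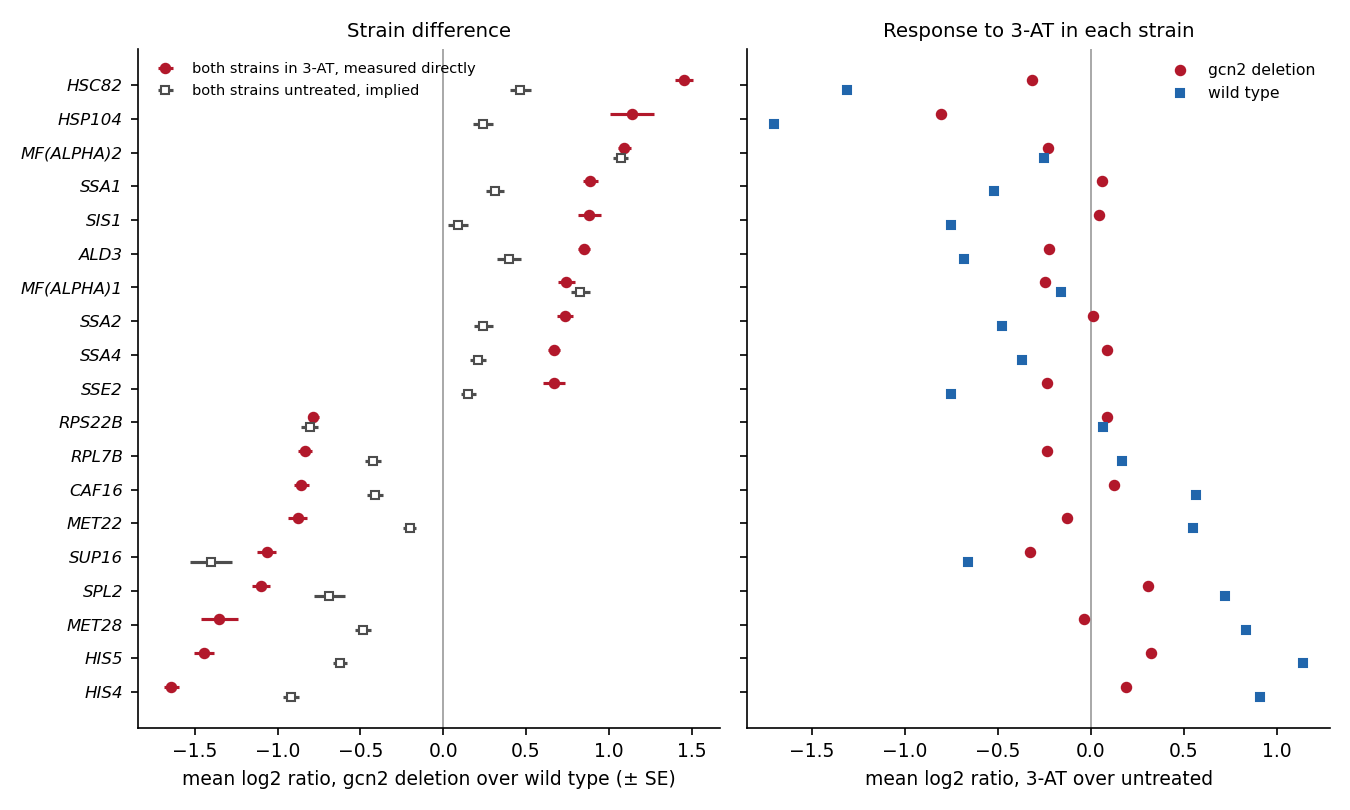
Left, mean log2 ratio of the gcn2 deletion over wild type with its SE for the 10 highest and 9 of the 10 lowest levels (GCN2 left out), measured with both strains in 3-AT (filled circles) and implied for both untreated (open squares). Right, the mean log2 response to 3-AT of the same genes in the gcn2 deletion (circles) and in wild type (squares): HIS5 stands at 0.32 and 1.14, and HSC82 at -0.32 and -1.31.

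Genes of mating type and pheromone response were higher in the gcn2 deletion in 10 of 15 cases and lower in 1 (34.2% and 24.2% among all levels), with a median of 0.24. The lower one was HMRA1, of the silent mating cassette, at -0.11, which stood at 0.13 with mutant RNA in Cy5 alone. MF(ALPHA)2 and MF(ALPHA)1, which encode the alpha-factor pheromone, averaged 1.09 ± 0.040 and 0.74 ± 0.049 (SE, n = 6; limma adjusted p = 7.2e-07 and 1.14e-05). STE3, which encodes the receptor for a-factor, averaged 0.61, and MATALPHA1, which encodes the activator of alpha-specific genes, averaged 0.53. MFA1 and MFA2, which encode a-factor, averaged 0.08 (adjusted p = 0.0696) and 0.18. FUS3, the pheromone kinase, averaged 0.52 and KAR4, a transcription factor of mating, averaged 0.61.

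Without the drug the differences were of like size. The implied untreated values were 0.83 for MF(ALPHA)1, 0.56 for STE3, 0.75 for MATALPHA1, 0.45 for FUS3 and 0.57 for KAR4, and 11 of the 15 genes were called higher (26.7% among all levels). None of the 15 was called in the response to 3-AT, where 15.7% of all levels were called and the count was unstable. SST2, which encodes a regulator that shuts off pheromone signalling, lay between 0.63 and 0.75 up to 10 min and stood at -0.19 at 20 min. Whether the strains differ in more than GCN2 was not tested. Of the genes listed as strain markers only GAL4 and GAL80 had values. The usual markers, such as URA3 and LEU2, were not among the genes read. GAL4 averaged -0.25 and GAL80 -0.05 in 3-AT, neither of them called. GAL80 had an implied untreated difference of 0.21 (limma adjusted p = 0.0134) and fell over the course by 0.55 (adjusted p = 0.00344).

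Nuclear tRNA genes were lower in the gcn2 deletion. Of 40 measured, 31 were lower and none was higher (24.2% and 34.2% among all levels), and all 40 means were below 0, with a median of -0.21. The median stood at -0.031 at 2 min, -0.11 at 4 min, -0.17 at 6 min, -0.26 at 10 min, -0.39 at 15 min and -0.42 at 20 min. At 2 min 24 of the 40 were below 0, and at 10 min all 40 were. The ratio fell over the course in 23 of 40 and rose in none, against 18% falling among all levels.

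Single tRNA genes followed 2 courses. SUP16 lay between -1.35 and -0.82 and TRR4, an arginine tRNA gene, between -0.74 and -0.46, low from the first minute on with no call for a change. TRT2, a threonine tRNA gene, stood at -0.034 at 2 min and -1.02 at 20 min (change -0.87, adjusted p = 0.00418). SUP11, a tyrosine tRNA gene, stood at 0.12 at 2 min and -0.87 at 20 min, and CDC65, a glutamine tRNA gene, at 0.74 at 2 min and -0.83 at 20 min. YNCD0003W, known here by its locus name, stood at -0.23 at 2 min and -0.97 at 15 min.

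The implied untreated difference was also lower in 22 of the 40 nuclear tRNA genes and higher in none (17.7% and 26.7% among all levels). In the response 1 of 40 was called, against 15.7% of all levels. Over the minutes the median response was 0.10 at 2 min and -0.50 at 20 min in the gcn2 deletion, against -0.21 and -0.30 in wild type. Of 24 mitochondrial tRNA genes, 13 were lower and 1 was higher (24.2% and 34.2% among all levels), with a median of -0.13, between tS(UGA)Q2 at -0.28 and tS(GCU)Q1 at 0.13. Their median was below that of all levels at every minute except 4 min. Copies of a tRNA family are near-identical, so neighbouring values may come from shared signal, and whether a probe reads mature or precursor tRNA is not given in the sources used here. Of the 23 falling genes the count was 8 without the 20 min pair and 14 without the 15 min pair, and 6 with mutant RNA in Cy3 alone, while the 31 lower means stayed between 29 and 34 when single pairs were left out.

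**Figure D3:**
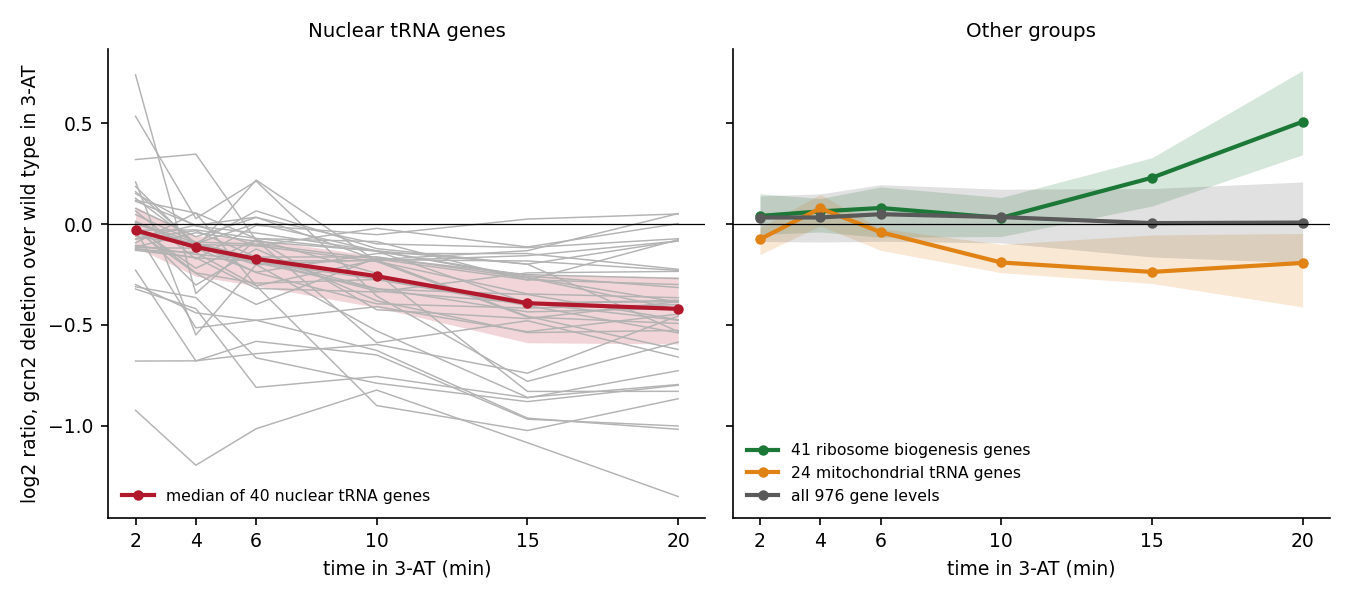
Log2 ratio of the gcn2 deletion over wild type in 3-AT (vertical axis) by minute. Left, each of 40 nuclear tRNA genes (grey lines) and their median with its quartiles (red). Right, medians with quartiles of 41 ribosome biogenesis genes, 24 mitochondrial tRNA genes and all 976 levels. The tRNA median ends at -0.42 and the ribosome biogenesis median at 0.51.

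Ribosome biogenesis genes went the other way, and late. Of 41 measured, 25 were higher and 3 lower (34.2% and 24.2% among all levels), with a median of 0.17. The ratio rose over the course in 25 and fell in none (13.3% and 18% among all levels). Their median lay between 0.032 and 0.080 up to 10 min and reached 0.23 at 15 min and 0.51 at 20 min, when 40 of the 41 were above 0. RCL1, which encodes a factor of 18S rRNA processing, stood at 0.079 at 2 min and 1.10 at 20 min (change 1.10, limma adjusted p = 0.000406). SPB1, which encodes an rRNA methyltransferase, stood at 0.19 at 2 min and 1.36 at 20 min. NOP1, which encodes fibrillarin, was the lowest, at -0.46 at 2 min and 0.045 at 20 min.

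The courses of each strain were set beside the late gap. The median response of these 41 genes was 0.47 in the gcn2 deletion against 0.65 in wild type at 10 min, and 1.14 in the gcn2 deletion against 0.56 in wild type at 20 min. Averaged over the course, the response difference was called higher in 2 of the 41 and lower in 1 (7.48% and 8.2% among all levels). The implied untreated difference was called higher in 20 and lower in 4 (26.7% and 17.7% among all levels). The median implied value was 0.26 at 10 min and -0.13 at 20 min. The rise of the direct ratio was called in 5 genes without the 20 min pair. It was called in 6 with log2 of the minute and in 15 with mutant RNA in Cy3 alone. The count thus rests largely on the last sample.

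The counts of the remaining lists are to be read against 34.2% higher and 24.2% lower among all levels. RNA decay factors were higher in 25 of 46 cases and lower in 7, with MOT2, a subunit of the Ccr4-Not complex, at 0.39 and PAT1, a decapping activator, at -0.33. Splicing factors were higher in 29 of 90 and lower in 11 (32.2% and 12.2%), with PRP11, of the branch-site complex, at 0.33 and SNP1, of the U1 particle, at -0.33. Translation factors were higher in 6 of 10, led by TIF5, which encodes eIF5, at 0.43. General stress, glycolysis and metal genes were higher in 7 of 13 and lower in 1, with TYE7 the highest. Its lowest, TDH1, a glyceraldehyde-3-phosphate dehydrogenase gene, averaged -0.105 but 0.10 on the arrays with mutant RNA in Cy5.

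Genes for mitochondrial proteins with introns were lower in 5 of 11 (24.2% among all levels) and fell over the course in 6 (18%), with COX4, a cytochrome oxidase subunit, at -0.50 and MRPL44, a mitochondrial ribosomal protein, at 0.32. Meiotic genes with introns were lower in 3 of 13, a share of 23.1% near that of all levels, and higher in none, with DMC1, the meiotic recombinase, at -0.27. Genes of the actin cytoskeleton list were higher in 3 and lower in 2 of 11 (27.3% and 18.2%). They lay between TUB1, alpha-tubulin, at -0.25 and ARP9, an actin-related protein of chromatin remodelling complexes, at 0.26. That list thus holds genes outside the actin cytoskeleton, both of these among them, and it shares YSC84 with the mitochondrial list. Of 3 genes listed as natural targets of nonsense-mediated decay, RPL28 averaged -0.35 and PPR1, a pyrimidine pathway regulator, averaged 0.26. EST2, the catalytic subunit of telomerase, averaged 0.20, and all 3 were called. These levels do not tell spliced from unspliced RNA.

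Levels of ribosomal protein genes barely differed as a group: 24 of 122 were higher and 34 lower (34.2% and 24.2% among all levels), with a median of -0.0071. RPL38 was the highest at 0.46 and RPL7B the lowest at -0.83. Splicing was read from 229 genes with an intron, a junction and an exon probe, whose kinds were inferred from the slide layout and from a splicing mutant of the same series.

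The median intron signal of ribosomal protein genes changed sides during the course. The median intron probe of 96 such genes stood at -0.088 at 2 min, -0.14 at 4 min, -0.18 at 6 min and -0.12 at 10 min, then at 0.12 at 15 min and 0.19 at 20 min. The median intron signal of these genes was lower in the gcn2 deletion over the first 10 min and higher at the last 2 samplings. Averaged over the course, 23 of the 96 intron probes were called lower and 8 higher (24.3% and 26.8% among all named probes). The intron ratio rose over the course in 48 of 96 and fell in none, against 13.9% rising among all named probes. The median intron probe of the other 133 genes stayed between -0.044 and 0.0031 throughout.

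A rise was called in 9 exon and 8 junction probes of the same 96 genes, and a fall in 2 of each kind. Among all named probes 13.9% rose and 14% fell. Their exon medians lay between -0.044 and 0.047 and their junction medians between -0.058 and 0.031. An index taken as the intron log2 ratio less the exon log2 ratio of each gene (intron minus exon) rose over the course in 40 of 96 ribosomal protein genes and fell in none, and in the other 133 genes it rose in 10 and fell in 13 (21.8% rising and 5.68% falling among all 229). Averaged over the course the index of ribosomal protein genes had no common side, with 20 higher and 22 lower. Among all 229 genes 42.8% passed, 21.8% higher and 21% lower.

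Each strain's own course shows the crossing. The median intron response of the 96 genes was 0.19 in the gcn2 deletion against 0.51 in wild type at 6 min, and 0.41 in the gcn2 deletion against 0.24 in wild type at 20 min. Averaged over the course, the response difference of these intron probes was called higher in 1 and lower in 17, with a median of -0.11. Over all 1457 named probes it was called higher in 92 and lower in 114. The implied untreated difference of these intron probes was called higher in 38 of 96 and lower in 7. Among all 1457 named probes it was called higher in 334 and lower in 261. The median implied untreated intron ratio of the 96 genes lay between 0.056 and 0.17. Without the 20, 4 and 15 min pairs, the rise of the direct ratio was called in 4, 28 and 31 intron probes. It was called in 9 with log2 of the minute and in 15 with mutant RNA in Cy3 alone.

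**Figure D4:**
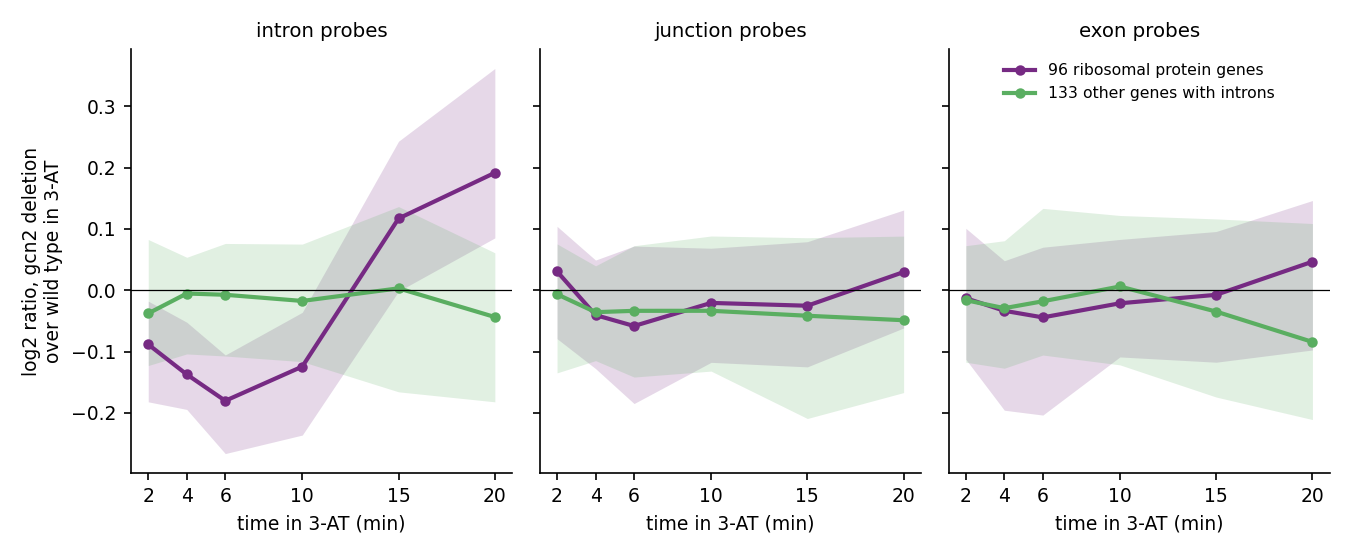
Median log2 ratio of the gcn2 deletion over wild type in 3-AT by minute, with quartiles as bands, for intron, junction and exon probes of 96 ribosomal protein genes and 133 other genes with introns. The ribosomal protein introns stand at -0.18 at 6 min and 0.19 at 20 min, while their junction medians lie between -0.058 and 0.031 and their exon medians between -0.044 and 0.047.

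Single genes gave larger indices than the groups. RPL30, whose protein binds its own transcript and blocks its splicing, had the highest mean intron minus exon index, 0.67 ± 0.053 (SE, n = 6; limma adjusted p = 1.72e-08). It stood at 0.31 at 2 min and 1.11 at 20 min and was above 0 in all 6 pairs. Here the intron probe itself averaged 0.45 and the exon probe -0.22, the exon value being -0.06 and not called with mutant RNA in Cy3 alone. RPL22B, another gene whose protein acts on its own intron, followed at 0.62 ± 0.048, with its intron probe at 0.12 (adjusted p = 0.083) and its exon probe at -0.50.

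RPS22B, RPL18B, RPS13 and RPS9A completed the 6 highest, at 0.58, 0.53, 0.51 and 0.47. In RPS13 the intron probe itself was high, with a mean of 0.55, while RPS22B had an exon probe at -0.78 beside an intron probe at -0.20. The 6 highest are all ribosomal protein genes, as are 96 of the 229 genes read. The index was called higher in 20.8% of ribosomal protein genes and in 22.6% of the other genes.

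The lowest indices were NOG2 at -0.74, RFA2 at -0.64, MRPL44 at -0.57, DCN1 at -0.45, SRB2 at -0.44 and TEF4 at -0.42. None of the 6 is a gene for a cytosolic ribosomal protein. The index was called lower in 22.92% of ribosomal protein genes and in 19.55% of the other genes. RFA2, which encodes a subunit of the single-strand DNA binding protein RPA, had its exon probe at 0.57 and its intron probe at -0.07. MRPL44 had an exon probe at 0.79 and an intron probe at -0.50 at 20 min, and its index had the largest fall of all, -1.30 over the course (adjusted p = 7e-05). The kinds of the NOG2 probes are uncertain, since they ran against their layout class, so its index is only a difference between 2 of its probes.

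OM14, which encodes an outer mitochondrial membrane protein, had the largest rise of its index, 1.13 over the course (adjusted p = 0.000298). Its exon probe stood at 0.35 at 2 min and -0.75 at 20 min while its intron probe stayed between -0.11 and 0.022, and without the 20 min pair the change was 0.71 (adjusted p = 0.0506). RPS24A, RPL2B and RPL7B followed, with rises of 1.05, 1.00 and 0.89.

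The junction minus exon index compares spliced product with total transcript. It was called in 33.2% of the 229 genes, higher in 39 (17%) and lower in 37 (16.2%). It changed over the course in 6 (2.62%), with 3 in each direction (1.31%). RPS9A had the highest, 0.90 ± 0.071 (limma adjusted p = 0.000613), between 0.40 and 1.14 over the pairs, and 0.55 with mutant RNA in Cy5 alone. COX4 followed at 0.76 ± 0.084, and RPL18B, RPS6A, RPL7B and RPS29B lay between 0.35 and 0.45. The lowest were RFA2 at -0.60, MOB2 at -0.42, EFB1 at -0.36, RPS21B and YSC84 at -0.32 and KIN28 at -0.31.

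The index of a gene subtracts the same exon probe that gives its level, so opposite signs of level and index are partly built in. Of 8 hosts of intronic small nucleolar RNAs, NOG2, of uncertain probe kinds, had the highest level (0.38) and an index of -0.74. EFB1 and TEF4, both for translation elongation factors, had higher levels (0.28 and 0.22) and lower intron minus exon indices (-0.40 and -0.42). RPL7A, RPL7B and RPS22B had lower levels (-0.35, -0.83 and -0.78) and higher indices (0.26, 0.28 and 0.58). ASC1, a ribosome-bound scaffold gene, had a level of -0.19 and an index of 0.16 that was -0.021 with mutant RNA in Cy5 alone. IMD4, of guanine nucleotide synthesis, had a level of -0.025 and an index of 0.0067, neither called.

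The genes known for regulating their own introns went several ways. RPL30, RPL22B, RPS9A and RPS9B had higher indices (0.67, 0.62, 0.47 and 0.23), RPS9B only with mutant RNA in Cy3, being 0.0024 in Cy5 alone. YRA1, an mRNA export factor gene, had a lower one (-0.21). DBP2, MTR2, RPL22A, RPS14A and RPS14B lay between -0.11 and 0.0011 and did not pass, and the kinds of the DBP2 and MTR2 probes are uncertain. Among these genes RPS9A and RPL22B had the lowest levels, -0.63 and -0.50.

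**Figure D5:**
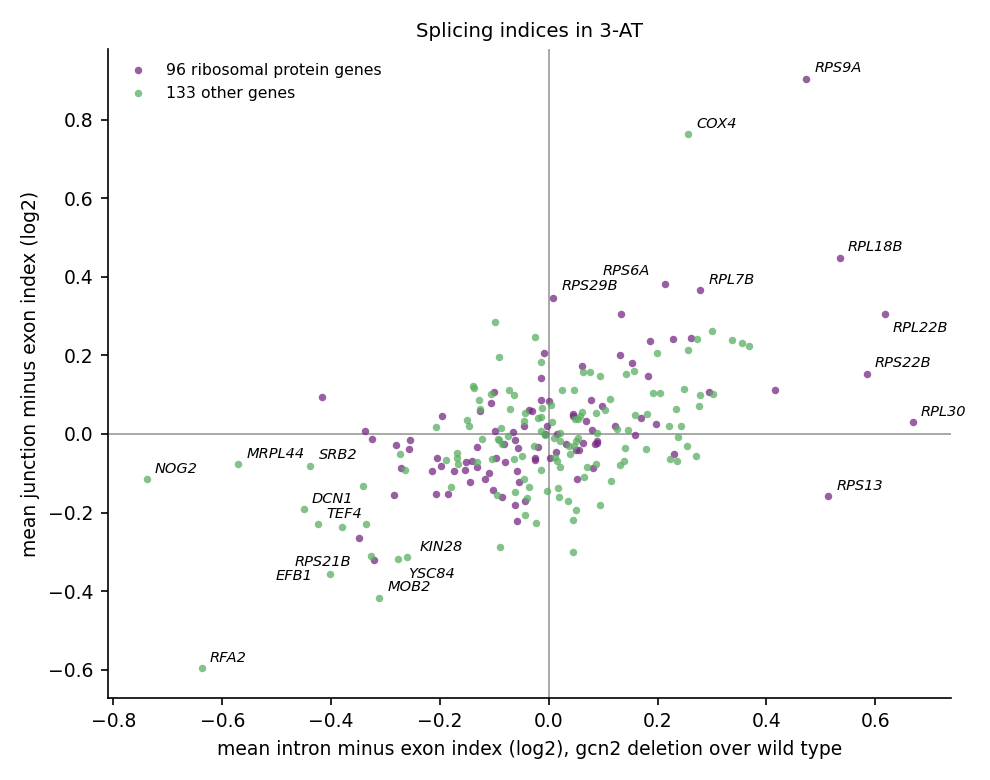
Mean intron minus exon index (horizontal axis, log2) against mean junction minus exon index (vertical axis, log2) of the gcn2 deletion over wild type in 3-AT for 229 genes, with the 6 highest and 6 lowest of each index named. Both axes subtract the same exon probe, which spreads points along the diagonal: RPS9A lies at 0.47 and 0.90, and RFA2 at -0.64 and -0.60.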

How the data were processed

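The authors deposited 1 log ratio per spot, taken as log2; the base, background correction and normalization were not given in the sources used here. Both dye orders of a pair already ran the same way, so no sign was changed, and pairs were averaged. Of 1536 probes with 4 spots each, 1457 were named, for 982 genes, through the platform annotation and, by Entrez ID, RefSeq R64; 79 are unnamed here. A level is a gene's exon probe or only probe (976 genes). Probe kinds of 229 genes were inferred from slide spacing and the prp8-1 arrays; 218 (95.2%) followed their class. Transfer RNA genes were taken by RefSeq gene type. No probe sequence was given.

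Pair means were fitted with limma 3.58.1 (R 4.3.3) on an intercept and the centred minute, with Benjamini-Hochberg adjustment over all 1457 named probes or 229 indices and a threshold of 0.05. The change is the slope scaled to 2 to 20 min. RPS27B's junction probe lacks the 15 min pair. The fit was tested on simulated data. Tables and figures used Python 3.11.15, numpy 2.4.6, pandas 2.3.3 and matplotlib 3.10.9. Alternatives changed the slope term, time scale, spot summary, dye orders, centring, scaling, moderation, probes and genes, or left out each pair.

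Genes were named as follows: GCN2, the amino acid, sulfur and chaperone lists in full, the 10 highest and 10 lowest levels and the 6 highest and 6 lowest changes and indices past the threshold, the extremes of each other list, and all autoregulated and snoRNA host genes. Further mating, transfer RNA and ribosome biogenesis genes were chosen after their values were seen. Members and lists were chosen with earlier results of these data known. Precision is limited by the 12 arrays, since brightness over background was not used here.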

Additional observations from a re-analysis of the deposited data

Results flagged for a closer look

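Of 121 sets of 6 pair values examined, 12 held a pair that stood apart from the others by Dixon's criterion, which chance meets in about 1 set in 20. Among levels these were GCN4 at 2 min (-0.4051), TEF4 at 2 min (-0.1678), RPL30 at 6 min (-0.4925) and, at 20 min, MF(ALPHA)2 (0.8535), TDH1 (-0.1926), PPR1 (0.5058), YRA1 (-0.2541) and IMD4 (0.256). Among indices they were the intron minus exon index of TEF4 at 2 min (-0.1384), of IMD4 at 15 min (0.2576) and of YRA1 at 20 min (-0.07815), and the junction minus exon index of RPS9B at 4 min (0.09425).

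The response to 3-AT differed between the gcn2 deletion and wild type (limma, adjusted p below 0.05) in 15 of the 20 genes with the highest and lowest levels. Given as gcn2 deletion minus wild type, it was below 0 for HIS4 (-0.7209), HIS5 (-0.8195), MET28 (-0.8675), MET22 (-0.6776), SPL2 (-0.4108), CAF16 (-0.4441) and RPL7B (-0.4075). It was above 0 for HSC82 (0.9926), HSP104 (0.8997), SIS1 (0.793), SSA1 (0.5792), SSE2 (0.5159), SSA2 (0.4908), SSA4 (0.4584) and ALD3 (0.4535). None of the 15 passed without the slope term.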

How the results depend on the processing

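GCN2, which set the direction of the ratios, averaged -3.963 with mutant RNA in Cy5 and -4.745 in Cy3. Without the slope term, 485 probes differed on average (744 with it), 61 intron indices (98 with it) and 1 probe in the response (206 with it). With log2 of the minute, 176 probes changed over the course (407 with the minute), 23 intron indices (63), 6 ribosome biogenesis genes (25) and 9 ribosomal protein introns (48). With mutant or treated RNA in Cy3 only, these counts were 141, 16, 15 and 15, with 6 falling nuclear tRNA genes (23 in both orders) and 84 response probes. Pairs scaled to equal spread gave 9 falling and 1 rising nuclear tRNA genes and 74 response probes. Leaving out single pairs gave 627 to 767 probes for the mean, 107 to 450 for the change (107 without 20 min, 237 without 4 min, 259 without 15 min), 86 to 95 intron and 49 to 80 junction indices (49 without 10 min, 50 without 4 min), and 23 to 67 changing intron indices (23 without 20 min, 41 without 15 min). It gave 455 to 535 implied untreated probes (595 with all pairs) and 29 to 344 response probes (344, 100, 90, 29 and 80 without 2, 6, 10, 15 and 20 min). In the lists, counted under alternatives added after the data were seen, it gave 29 to 34 lower and 8 to 23 falling nuclear tRNA genes, 8 to 9 chaperones, 8 to 10 mating genes, 5 to 29 ribosome biogenesis genes and 4 to 56 ribosomal protein introns. With mutant RNA in Cy5 only, the sign turned for the levels of TDH1 (0.1001) and HMRA1 (0.1292), the ASC1 intron index (-0.02129), the NOG2 (0.06098) and RPS22B (-0.03941) junction indices and the LSM7 intron index change (0.06877). The causes were not tested. Of all values of single genes under alternatives, 113 lost the call, 14 gained it and 6 that had been called turned sign. The other 2450 were counted as unchanged. These include any value not called in the main fit whose sign turned, so they did not all keep direction. Strains were paired by minute throughout, since each direct ratio holds both strains at 1 minute and the implied and response values were formed minute by minute. Beyond that, no paired analysis was possible because each fit holds 1 value per minute, and a block for the minute would leave no residual.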
